A study of Homo sapiens with 2 samples.

Results

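A set of 41 genes that act in homologous recombination, in the Fanconi anaemia pathway and in the DNA damage checkpoint was described in Ca9-22, an oral squamous cell carcinoma cell line. The members were the genes whose name in the array files equalled 1 of 41 listed symbols, on probes that are not control spots, and all 41 were found among 43317 gene names. The cells had been infected with a lentiviral vector carrying DLEU1, a long non-coding RNA, or with a control vector, and both cultures were kept under blasticidin, given in the labels as 6 mg/ml, for 2 weeks before total RNA was taken. Each culture was measured on 1 single-colour Agilent array, both on the same slide and scan, so the comparison had 1 sample in each group, called here the control array and the DLEU1 array. No test was therefore possible and no p-value is given, and each difference below is one between these 2 RNA samples. The vector places the full-length DLEU1 transcript in infected cells that survived selection, and the labels do not say that clones were picked.

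Homologous recombination repairs a double-strand break by copying an intact sister sequence: nucleases first trim the ends, BRCA2 and its partners then load a recombinase on the single strand, and helicases and nucleases later separate the joined molecules. The Fanconi anaemia pathway acts where both strands are crosslinked, and its core complex attaches ubiquitin to the FANCI-FANCD2 pair, after which the recombination proteins complete the repair. The kinases ATR and ATM report such damage and, through CHEK1 and CHEK2, hold the cell cycle. Many genes of these pathways are transcribed mainly in cells that are replicating DNA, and E2F proteins are among the factors known to bind their promoters.

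The promoters of the members were searched on both strands for 8-base sites of the E2F type, TTTCCCGC, TTTCGCGC, TTTGCCGC and TTTGGCGC. The motifs were chosen with earlier results of these data known, and whether a site bears on a member's difference was not tested. Each window ran from 250 bases before to 50 bases after a RefSeq start (GRCh38.p14). Of the 41 genes, 37 had 51 such windows, and FANCI, NBN, RAD54B and WRN had none in the table. The sites found are printed on the strand of each gene with 11 bases on either side and the site in capitals, so that the 8 letters that were matched can be compared between genes.
MND1, chr4:153344643-153344672, plus strand: cggcgtagtcgGCGCCAAAatcaaacgcgt
EXO1, chr1:241848197-241848226, plus strand: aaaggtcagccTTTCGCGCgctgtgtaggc
FANCD2, chr3:10026424-10026453, plus strand: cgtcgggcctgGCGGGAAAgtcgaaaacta
FANCA, chr16:89816801-89816830, minus strand: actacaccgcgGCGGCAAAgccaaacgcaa
XRCC2, chr7:152676102-152676131, minus strand: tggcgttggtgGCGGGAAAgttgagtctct
FANCC, chr9:95317863-95317892, minus strand: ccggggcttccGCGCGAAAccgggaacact
FANCC, chr9:95317737-95317766, minus strand: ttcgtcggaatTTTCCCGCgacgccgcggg

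The first 5 genes of this alignment were lower with the DLEU1 vector by at least 2-fold, and FANCC was not. An E2F-type site was present in 5 of the 23 lower members that had a window and in 1 of the 14 other members with one. Counted over windows, the share was 13.7% of the members' 51 against 3.31% of all 35116 windows, and counted over genes it was 16.2% of members against 6.18% of genes detected on both arrays. The CCAAT box, the letters that NF-Y binds, stood in 45.1% of member windows and 34.6% of all windows. Counted over genes, it stood in 12 of the 23 lower members, 52.2%, and in 6 of the 14 others, 42.9%. Among genes detected on both arrays that share was 42.6%. The CHR-type letters TTTGAA or TTCGAA were in 7.84% of member windows and 16.4% of all windows. Counted over genes, they were in 10.8% of members and 15.6% of genes detected on both arrays. They were in 2 of the 23 lower members and in 2 of the 14 others. No searched motif contains another, and a match describes the sequence only.

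The stretch of 100 bases before the start is shown for the 3 lowest members and the 2 highest that had a single window, with each CCAAT box in capitals (ATTGG where it lies on the other strand), to let the ends of the ranking be read side by side.
DDIAS, chr11:82901636-82901735, plus strand: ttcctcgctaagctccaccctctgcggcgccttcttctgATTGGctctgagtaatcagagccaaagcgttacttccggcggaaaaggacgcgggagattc
RAD51AP1, chr12:4538790-4538889, plus strand: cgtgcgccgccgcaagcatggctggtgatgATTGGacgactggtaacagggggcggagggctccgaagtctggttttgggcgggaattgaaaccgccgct
BLM, chr15:90717246-90717345, plus strand: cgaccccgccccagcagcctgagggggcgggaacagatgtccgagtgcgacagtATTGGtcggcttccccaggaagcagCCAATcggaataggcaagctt
FANCE, chr6:35452238-35452337, plus strand: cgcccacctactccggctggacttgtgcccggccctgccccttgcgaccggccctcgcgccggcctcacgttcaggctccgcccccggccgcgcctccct
RAD50, chr5:132556877-132556976, plus strand: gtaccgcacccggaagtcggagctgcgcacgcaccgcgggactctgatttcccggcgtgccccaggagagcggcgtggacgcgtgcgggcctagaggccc

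These 100 bases held 1 CCAAT box in DDIAS and RAD51AP1 and 2 in BLM, and the whole windows held 3 in DDIAS, 1 in RAD51AP1 and 3 in BLM. The windows of FANCE and RAD50 held none. No E2F-type site was found in any of these 5 windows. Other members went the other way for the CCAAT box. The windows of MND1 and EXO1, both lower, held none, while that of XRCC3 held 5 and that of FANCF 2.

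All 41 members were detected on both arrays. Levels below are log2 of the processed signal minus the 75th percentile of the same array, for the brightest detected probe of each gene, and a difference is the level with the DLEU1 vector minus that with the control vector. A probe's level depends on its sequence, so levels are compared only between arrays. With the DLEU1 vector, 25 members were lower by at least 2-fold, which is 61.0%, against a background of 9.78% of the 20246 genes detected on both arrays. No member was higher by at least 2-fold, where 9.18% of all genes were. The difference was below 0 in 40 of 41 members, and its median was -1.46 against -0.07 over all genes. At the 4-fold threshold 17 members were lower, 41.5% against 1.92% of genes, and at the 8-fold threshold 6 were, 14.6% against 0.425%. These counts depend on the background correction. With a different correction, normexp, FANCI at -2.95, EXO1 at -2.79, BLM at -2.73 and RAD51AP1 at -2.35 fell short of 8-fold. FANCA, FANCG, RAD54B, RAD51D and BRCA2 then fell short of 4-fold. The 100 most lowered of the 20246 genes detected on both arrays held 7 of the 41 members. Genes detected on the control array only are not in this ranking. In a bulk sample, fewer cells with a transcript and less of it in each cell cannot be told apart.

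Errors of a technical kind were available from the arrays themselves. The log2 difference between arrays varied with an SD of 0.080 between spots of 1 probe, over 282 probes spotted repeatedly, and it varied with an SD of 0.470 between different probes of a gene, over 4674 genes. The extraction software's own error for a member's difference lay between 0.204 and 0.271. None of these covers the spread between cultures. Neighbours in the order of members that stand closer than the software's error or the SD between probes are therefore not separated. This holds, among others, for the first 4 members.

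**Figure D1:**
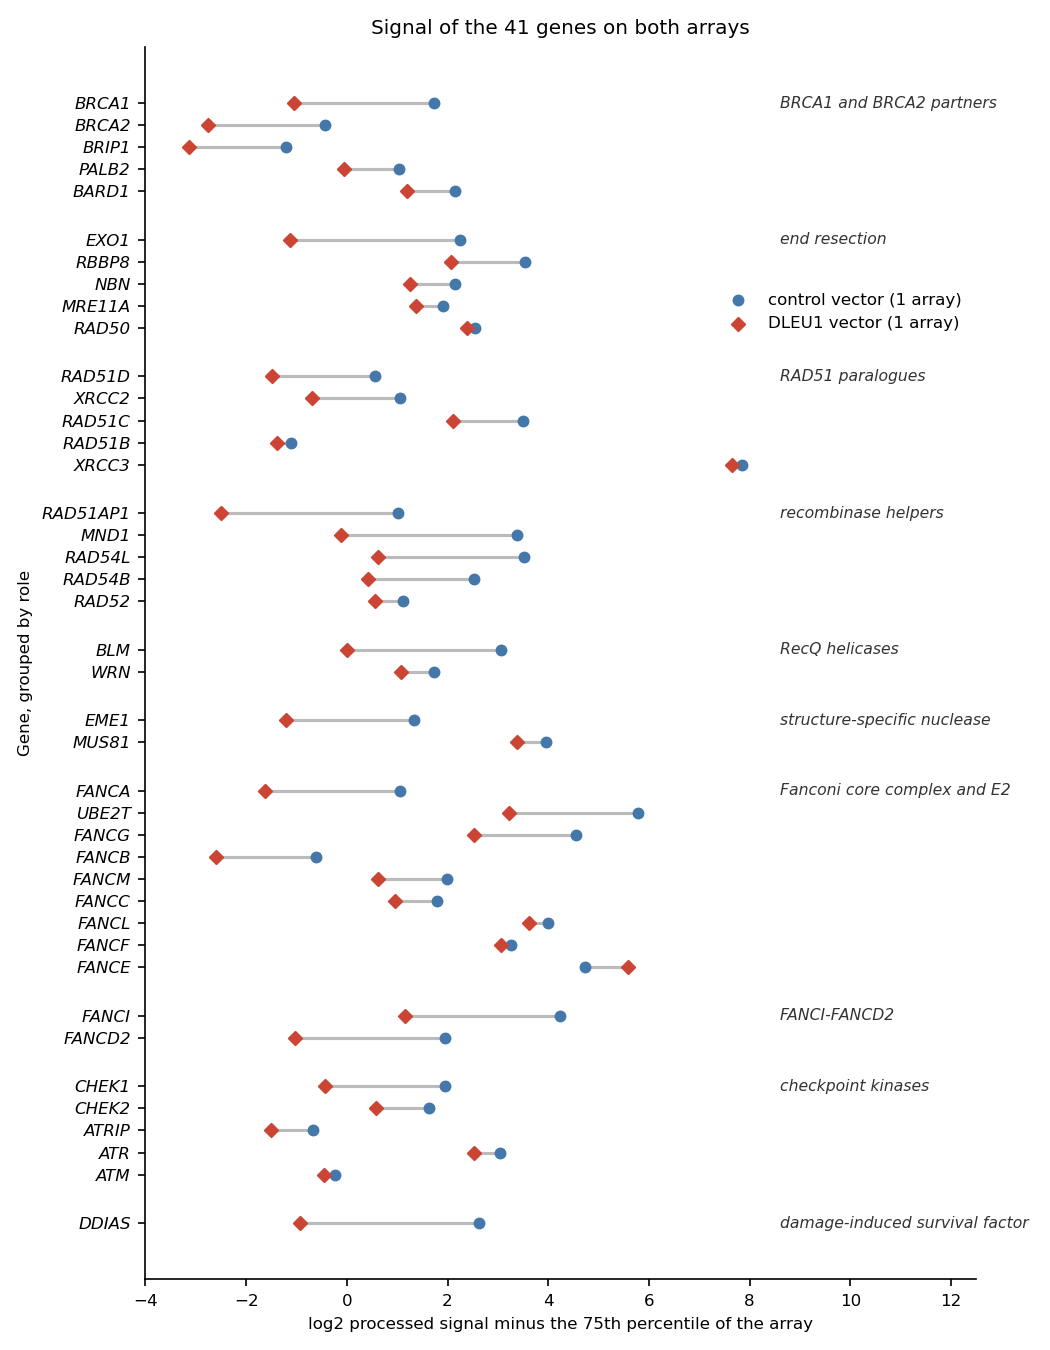
Levels of the 41 genes, grouped by role, on the array of the control vector (blue circles) and of the DLEU1 vector (red diamonds), as log2 processed signal minus the 75th percentile of the array, 1 array each. In 40 of the 41 genes the diamond stands to the left of the circle, and FANCE is the exception; positions of different genes on the axis are not comparable.

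DDIAS, a factor that protects cells from apoptosis after DNA damage, had the largest difference of the set. Its probe, which lies at chr11:82645351-82645410 on the hg19 build, read 2.63 on the control array and -0.94 on the DLEU1 array. The difference was -3.57, 11.8-fold, and 0.084% of the genes detected on both arrays had a more negative one.

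Among the BRCA1 and BRCA2 partners 4 of 5 were lower by at least 2-fold, with a median difference of -1.92. BRCA1, the ubiquitin ligase that promotes resection and recombination, read 1.73 on the control array and -1.04 on the DLEU1 array, a difference of -2.78. BRCA2, which delivers the recombinase to single-stranded DNA, read -0.43 and -2.77, a difference of -2.33. For BRIP1, the helicase also called FANCJ that binds BRCA1, the levels were -1.20 and -3.13 and the difference -1.92. Both probes were dim on the DLEU1 array, with processed signals of 34.7 for BRCA2 and 27.0 for BRIP1, and under another background correction, normexp, the differences were -1.22 and -0.85, so that BRIP1 no longer reached 2-fold. PALB2, the bridge between BRCA1 and BRCA2, stood at 1.05 and -0.06, a difference of -1.11 that is just past the threshold and was -0.95 with normexp. BARD1, the obligate partner of BRCA1 in the ligase, stood at 2.14 and 1.21, and its difference of -0.94 was just short of it.

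The resection genes were divided. EXO1, the exonuclease of long-range resection, read 2.25 on the control array and -1.13 on the DLEU1 array, a difference of -3.38 and 10.4-fold, which was -2.79 with normexp. RBBP8, which encodes CtIP, read 3.54 and 2.08, a difference of -1.46. The complex that recognises ends and starts the cut is formed by MRE11A, RAD50 and NBN, and none of its genes reached 2-fold in the main setting. Their differences were -0.54 for MRE11A, -0.15 for RAD50 and -0.90 for NBN. EXO1 was the fourth lowest of the 41 members, and RAD50 was the second highest.

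Replicated spots were available for 5 members, and they show the technical spread around these values directly. The 10 spot differences of EXO1 ran from -3.66 to -3.14, with an SD of 0.170. Those of BRCA1 ran from -2.91 to -2.56, with an SD of 0.101, and those of FANCA from -3.01 to -2.50, with an SD of 0.161. In these genes every spot on the DLEU1 array was dimmer than every spot on the control array. For WRN the spots ran from -0.82 to -0.51, again without overlap of the arrays. The share of all 282 repeatedly spotted probes that separate in this way was not counted. Beside a spot SD of 0.080, the small difference of WRN was already enough, so the separation says nothing particular about these members. For RAD50 they ran from -0.24 to -0.04, and the signals of both arrays overlapped, since the lowest control spot read 2.43 and the highest DLEU1 spot 2.47. Of the 10 RAD50 spots, 1 lay in a strip of the DLEU1 array described below with RAD51C.

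**Figure D2:**
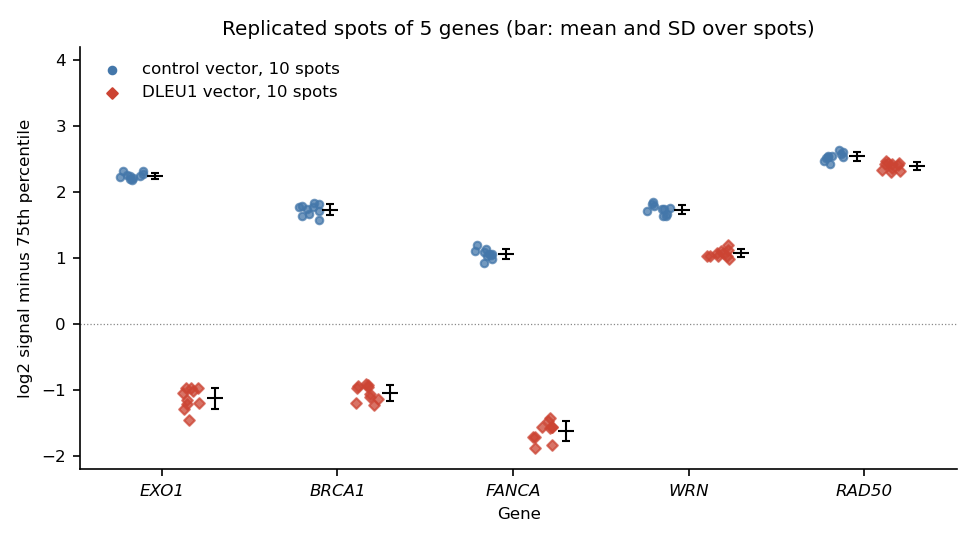
Level of each of 10 spots for EXO1, BRCA1, FANCA, WRN and RAD50 on both arrays, as log2 signal minus the 75th percentile, with the mean and SD over spots as bars. The spots share 1 RNA sample per array, so the bars show technical spread; the clouds of EXO1, BRCA1 and FANCA lie far apart and those of RAD50 overlap.

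The paralogues of the recombinase, which assist and remodel its filament, held 3 lower genes of 5. XRCC2 read 1.05 on the control array and -0.68 on the DLEU1 array, a difference of -1.73. RAD51C, a subunit of both paralogue complexes, read 3.50 and 2.11, a difference of -1.38. Its only spot lay in a narrow strip of the DLEU1 array, where 27.6% of the probes detected on the control array were at least 2-fold lower against 12.0% elsewhere, and the part of the strip in this difference was not tested. RAD51B stood at a difference of -0.28, from 1 of its 2 probes, since the other was detected on neither array.

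RAD51D and XRCC3 depended on the probe that was read. RAD51D read 0.55 on the control array and -1.48 on the DLEU1 array on its brightest probe, a difference of -2.04, and a second probe differed by -2.01. Its remaining probe, on another transcript form, differed by only -0.20. For XRCC3, the brightest probe was assigned to an Ensembl transcript and read 7.85 and 7.64, a difference of -0.21, while the probe of its RefSeq mRNA read 4.37 and 1.96, a difference of -2.41. XRCC3 is therefore counted as not lower by the rule of the brightest probe, and it would be lower by its mRNA probe.

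The genes that help the recombinase to invade and pair strands held 4 lower genes of 5, with a median difference of -2.90. RAD51AP1, which binds DNA and stimulates joint molecule formation, read 1.01 on the control array and -2.50 on the DLEU1 array, a difference of -3.50. Its processed signal on the DLEU1 array was 41.8, and with normexp the difference was -2.35. MND1, best known as a partner of PSMC3IP in meiotic strand exchange, read 3.38 and -0.11, a difference of -3.48. The DNA translocases RAD54L and RAD54B move along the joint and free the recombinase from it. RAD54L read 3.52 and 0.62, a difference of -2.90. RAD54B read 2.52 and 0.42 on its brightest probe, a difference of -2.10, and its second probe differed by -0.66. RAD52, an annealing protein, was the member of this role that was not called: its brightest probe read 1.11 and 0.56, a difference of -0.55, and another probe differed by 0.09.

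The enzymes that take joined molecules apart were again unequal within each pair. BLM, the RecQ helicase that dissolves double Holliday junctions, read 3.05 on the control array and -0.0050 on the DLEU1 array, a difference of -3.06 and 8.34-fold. WRN, the RecQ helicase of Werner syndrome, differed by -0.67. EME1, the partner subunit of the MUS81 nuclease, read 1.34 on the control array and -1.20 on the DLEU1 array, a difference of -2.54. MUS81, which carries the active site, differed by -0.57. In each pair the differences lay further apart than the SD between probes of a gene.

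Of the Fanconi core complex and its E2 enzyme, 5 of 9 genes were lower by at least 2-fold, and the median difference was -1.36. FANCA read 1.06 on the control array and -1.63 on the DLEU1 array, a difference of -2.69, and its 3 probes lay between -2.69 and -2.41, while with normexp the difference was -1.97. FANCG, which binds FANCA, read 4.56 and 2.53, a difference of -2.03. UBE2T, the E2 enzyme that hands ubiquitin to the complex, read 5.77 and 3.22, a difference of -2.55. The partners FANCA and FANCG and the enzyme that serves them were thus all more than 4-fold lower in the main setting, FANCG only just. FANCG fell short of 4-fold with normexp at -1.99, with quantile normalization at -1.87 and with loess at -1.84. FANCB, the X-linked subunit that joins the ligase FANCL, read -0.60 and -2.60, a difference of -1.99. Its signal on the DLEU1 array was 39.1, and with normexp the difference was -1.09, close to the threshold. FANCM, the translocase that recruits the complex to DNA, read 1.98 and 0.62, a difference of -1.36.

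The rest of the core complex stood nearer to the median of all genes. FANCL, the ligase subunit, differed by -0.38. FANCC, FANCE and FANCF form a substrate-binding arm of the complex, and none of these was called. FANCC read 1.79 on the control array and 0.96 on the DLEU1 array, a difference of -0.83, while its second probe differed by -0.06. FANCF differed by -0.19 on its brightest probe and by 0.37 on the other. FANCE was the only member above 0: it read 4.72 and 5.58, a difference of 0.86 and 1.81-fold, and 88.4% of all genes lay below it. Under quantile normalization FANCE differed by 1.09 and under loess by 1.10, past 2-fold in both.

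Both genes of the pair that the core complex ubiquitinates were lower by more than 4-fold. FANCI read 4.23 on the control array and 1.16 on the DLEU1 array, a difference of -3.07. FANCD2 read 1.95 and -1.02, a difference of -2.98, and a second probe differed by -2.56. A further FANCD2 probe was detected on the control array only, where it was at least 3.27-fold higher, taking the lowest level of a detected probe as its bound on the DLEU1 array.

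Among the checkpoint kinases, 2 of 5 were lower by at least 2-fold and the median difference was -0.84. CHEK1, the effector kinase of ATR at stalled forks, read 1.96 on the control array and -0.44 on the DLEU1 array, a difference of -2.40. CHEK2, the effector of ATM, read 1.63 and 0.59, a difference of -1.04, and its 4 probes lay between -1.09 and -0.74, with 1 of them spotted in the strip that also holds RAD51C. The CHEK2 value was within the errors of the threshold, and with normexp it was -0.95. Upstream, ATR differed by -0.51, its partner ATRIP by -0.84 and ATM, the kinase of double-strand breaks, by -0.23. The 3 ATM probes ran from -0.27 to 0.02.

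**Figure D3:**
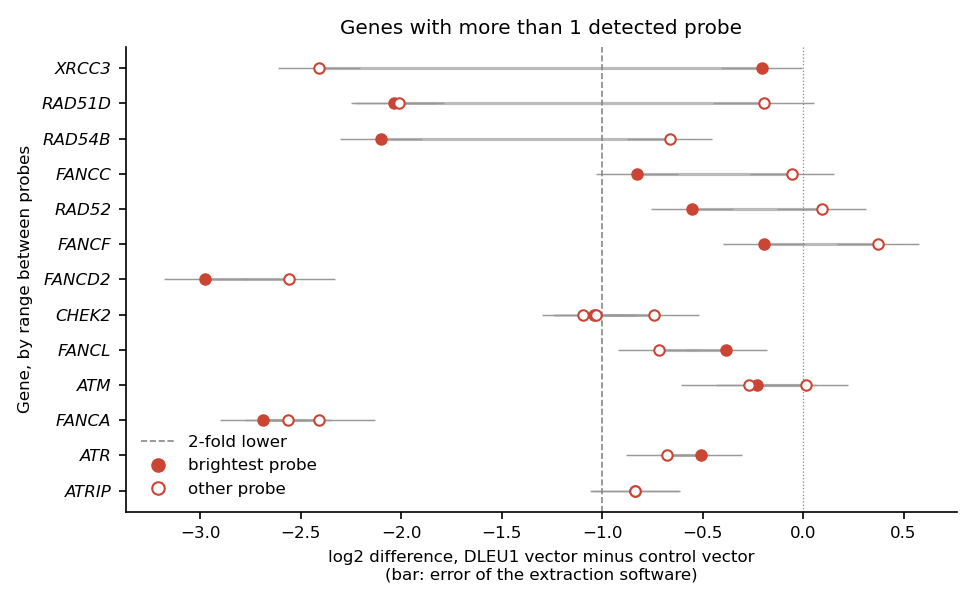
Difference of each detected probe, DLEU1 vector minus control vector on the log2 scale, for the 13 genes with more than 1 detected probe, ordered by the range between probes, with the software's error as bars. Filled circles are the brightest probe; XRCC3, RAD51D and RAD54B show ranges of 2.20, 1.84 and 1.44, whereas the probes of FANCA all lie left of the dashed 2-fold line.

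Over the 13 members with more than 1 detected probe, all probes were at least 2-fold lower in 2, some were in 4 and none were in 7. In 3 of them the probes lay on both sides of 0. The between-probe SD of members was 0.609, against 0.470 for all genes. Over all 59 member probes detected on both arrays, 32 were at least 2-fold lower and none was higher. The share over all probes of the arrays was not counted. Counted over genes by their brightest probe, 9.78% were lower and 9.18% higher. Nor was the split by probes counted over the 4674 genes with more than 1 detected probe, so neither count has a background of its own kind.

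Genes of the same pathways that are no members were read beside these. In a list of 38 other recombination and Fanconi genes, 37 were detected on both arrays and 1 on the control array only. Of the 37, 16 were lower by at least 2-fold, 43.2%, with a median difference of -0.72. PSMC3IP, the partner of MND1, differed by -3.12, and POLQ, the polymerase of an alternative end-joining route, by -3.02. At the other end stood BRE at 0.61 and SWSAP1, a cofactor in recombinase loading, at 0.74. Of 18 checkpoint mediators and effectors, 16 were detected on both arrays and 2 on the control array only. Of the 16, 7 were lower, with a median of -0.57. The lowest was CDC25A, the phosphatase that activates cyclin-dependent kinases, with -3.28. Genes detected on the control array only are left out of these shares and medians. Among all gene names, 1055 were detected on the control array only and 1232 on the DLEU1 array only.

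The other repair routes held smaller shares. In nucleotide excision repair none of 14 genes was lower by 2-fold and the median was -0.02, close to that of all genes. End joining had 2 lower genes of 9 and a median of -0.61, base excision repair 3 of 18 and -0.54, and mismatch repair 2 of 7 and -0.82. The lowest of these genes was NEIL3, a glycosylase that also acts on crosslinks, at -3.34, and the highest was NEIL1, another glycosylase, at 1.74.

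The replication fork genes were lower more often than the members. Of 27, 26 were lower by at least 2-fold, and the median difference was -2.53. GINS2, PRIM1 and DTL of this list had spots in the strip described with RAD51C, and without the strip the median was -2.55. The lowest replication fork genes were CDC45, part of the replicative helicase, at -3.76 and MCM10 at -3.62. Of the S-phase regulators 9 of 13 were lower, with a median of -1.94, and E2F1, a transcription factor of S-phase genes, differed by -3.56 and MYBL2 by -3.46. The members' median thus lay between those of nucleotide excision repair and of the replication fork. The part that a change in the number of replicating cells had in any member's value was not tested.

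**Figure D4:**
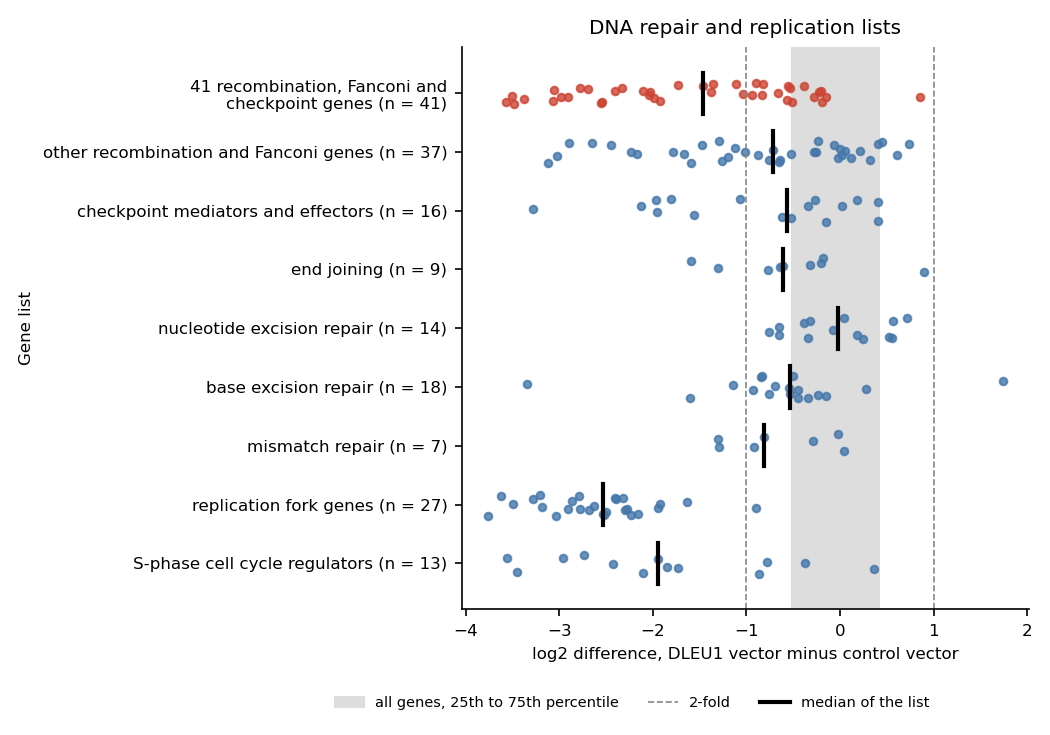
Differences on the log2 scale for each gene of 9 lists detected on both arrays (points), with the median of the list (black bar), the range from the 25th to the 75th percentile of all genes (grey) and the 2-fold lines (dashed). The 41 genes reach from -3.57 to 0.86, nucleotide excision repair sits around 0, and 26 of 27 replication fork genes lie left of the lower line.

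As a check of the labels, the brightest DLEU1 probe read 3.17 on the control array and 5.91 on the DLEU1 array, a difference of 2.74. Its other probes, on another transcript form, differed by 0.85 and 0.54, short of 2-fold. All 7 squamous epithelial markers were detected on both arrays, and 5 of them were at least 2-fold higher on the DLEU1 array, with differences of 2.85 for KRT14, 2.51 for DSG3, 2.10 for KRT5, 1.37 for DSP and 1.04 for CDH1. TP63 differed by 0.96 and EPCAM by -0.78, and with spike-in scaling 3 of the 7 were past 2-fold. Of the 6 fibroblast markers, 2 were detected on the control array and 3 on the DLEU1 array, where COL1A1 read 0.47 and 4.47 while COL1A2, COL3A1 and DCN were detected on neither array. Blood cell markers were detected in 3 of 5 cases and endothelial markers in 2 of 3 on each array, with VWF at -2.33 and 1.37 and PECAM1 on neither. The part that these marker differences, squamous ones included, have in the members' values was not tested. The number of probes detected was 27731 on the control array and 27969 on the DLEU1 array.

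**Figure D5:**
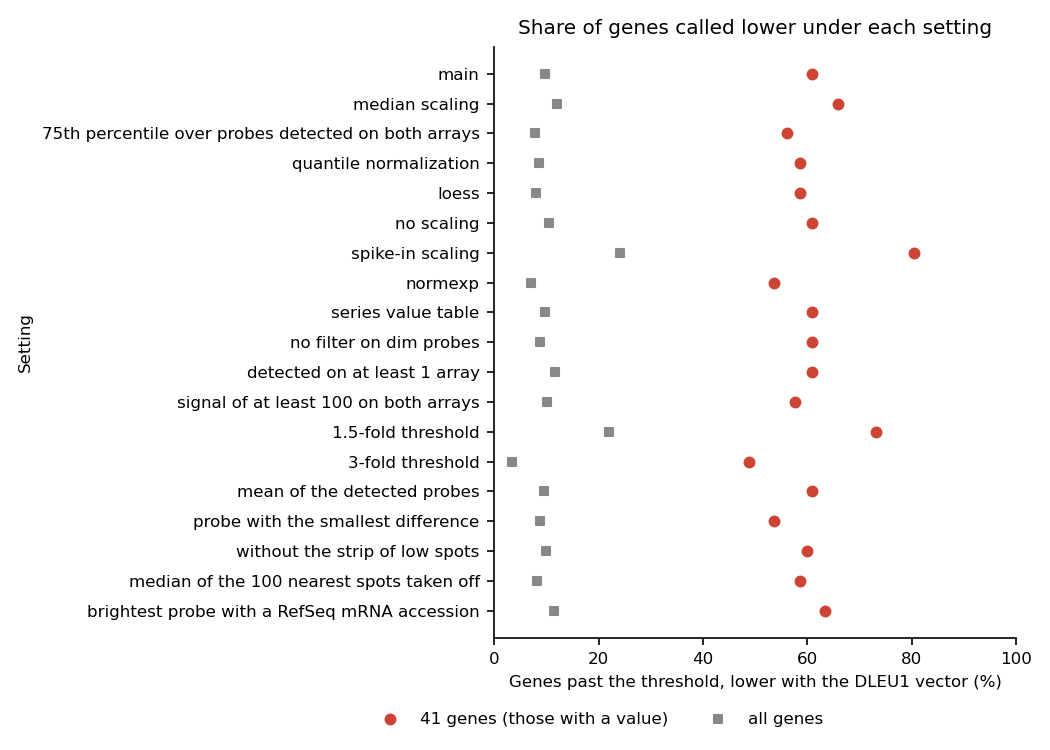
Percent of the 41 genes (red) and of all genes (grey) called lower with the DLEU1 vector under each setting tried, at 2-fold unless the setting names another threshold. The red points stay to the right of the grey ones in every row, with the main setting at 61.0% and 9.78%.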

How the data were processed

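The authors deposited 1 Agilent Feature Extraction table for each array, with a processed intensity per spot from which, per the file headers, background and spatial trend had been subtracted, and a table of values for both arrays that differed from those intensities by at most 0.497%. The software was version 10.7 in the submitters' processing notes. From these, log2 intensities were averaged over the spots of a probe without outlier spots and set against the 75th percentile of each array. A probe was called detected where most of its spots were well above background, and a gene took its brightest probe detected on both arrays. Genes past 2-fold were counted, since 1 array in each group allows no test. Python 3.11.15, pandas 2.3.3 and limma 3.58.1, for normexp with an offset of 50, quantile and loess, were used, and the procedure was tested on simulated data. Their noise was smaller than the spread between probes of a gene. The simulation therefore checks the counting, and not calls near the threshold or from dim or discordant probes. Probe coordinates are those of the array files (hg19). The members, the gene lists and the motifs were chosen with earlier results of these data known. The named genes were all 41 members, with full values for those past 2-fold or with discordant probes, and the ends of the other lists. MRE11A is an older symbol, and 40 of the 41 names matched a current RefSeq symbol. The number of arrays limits the precision.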

Additional observations from a re-analysis of the deposited data

How the results depend on the processing

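Across the 18 alternatives, lower members numbered between 19 (signal of at least 100 on both arrays, which left 33 members) and 33 (spike-in scaling), against 25. With normexp 22 were lower, where 6.98% of all genes were, and at 1.5-fold and 3-fold 30 and 20 were, beside 22.0% and 3.31% of all genes. FANCE was the 1 higher member under quantile normalization, loess and the 1.5-fold threshold. The median difference of the members, -1.46, became -1.57 with median scaling, -1.35 with the percentile over detected probes, -1.34 with quantile, -1.30 with loess, -1.92 with spike-in scaling, -1.22 with normexp, -1.36 both with the signal minimum and with the probe of smallest difference, -1.61 without the strip of low spots, and -1.73 with RefSeq mRNA probes, an alternative chosen after seeing the data. In the same order of scalings, the other recombination and Fanconi genes moved from -0.72 to -0.83, -0.61, -0.58, -0.55 and -1.18, and the replication fork genes from -2.53 to -2.64, -2.42, -2.36, -2.34 and -2.99, with -2.35 for normexp. Spike-in scaling shifted the median of all genes from -0.07 to -0.53 and its calls to 24.1% lower and 4.56% higher. Relative to all genes the members stood at -1.39 in both. That equality was fixed in advance, since this scaling shifts every gene by the same amount. Of 25 lower members, 20 stayed past 2-fold in every alternative that gave them a value, and PALB2, CHEK2, BRIP1, RAD51D and RAD54B did not. Of 647 values of single members, 222 moved by more than the spread of spots and none of a called member changed sign. Among members not called, XRCC3, FANCF, RAD52 and ATM changed sign under 1 alternative each. No paired analysis was possible because each group has 1 sample. The number of arrays and the dim signal of members such as BRIP1, BRCA2, FANCB and RAD51AP1 limit all of these values.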
